A study of Mus musculus with 32 samples.

Results

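ACLY-Nuc cells were compared with ACLY-Cyto cells in 10 mM glucose, which sets fibroblasts with ATP-citrate lyase directed to the nucleus against fibroblasts with the same enzyme exported from it. The comparison takes 4 ACLY-Nuc libraries (numbered 1 to 4) and 3 ACLY-Cyto libraries (numbered 1, 2 and 4), 7 of the 32 samples of the series, and all 12791 genes that the 10 mM table lists under a symbol. Cyto library 3, which the submitters call an anomaly, was not analysed here. All cells were mouse embryonic fibroblasts in which the endogenous Acly gene had been knocked out. ACLY-Cyto cells (Cyto) expressed mCherry-tagged human ACLY with a nuclear export sequence, and ACLY-Nuc cells (Nuc) expressed it with additional nuclear import sequences. Reference levels come from the 4 libraries each of ACLY WT cells (WT), with tagged human ACLY that carries neither added sequence, and of Acly KO cells (KO), with mCherry alone from the same vector. Cells grew in DMEM with 10% CS, were moved to medium with 10 mM glucose and were collected after 24 h, and all of these libraries belong to batch 2. Whether a line is 1 clone, which promoter drives the construct and whether the numbered libraries are separate cultures were not stated in the labels. The p-values therefore measure the spread between these libraries, which may be technical, and differences between the Nuc and Cyto lines that arose before the experiment cannot be told apart from effects of where ACLY is.

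ATP-citrate lyase cleaves citrate that has left the mitochondria into oxaloacetate and acetyl-CoA. In the cytosol acetyl-CoA is the carbon source of sterols and fatty acids, and in the nucleus it is the acetyl donor for histone acetyltransferases. Genes of sterol synthesis are switched on together by SREBP transcription factors when membrane sterol runs low, and cultured fibroblasts are otherwise known for high expression of collagens, other matrix proteins and growth factor response genes.

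Values are the authors' log2 CPM (read counts scaled to a common library total), called log2 levels here, so that a difference of 1 is a 2-fold difference. The depth behind them is not given by the table, and a gene at the lowest value of the table (-3.29) is described as listed at that value, not as absent. The ± after a group mean is the SD over its libraries, and the ± after a log2 fold change (Nuc minus Cyto) is the standard error from limma. A gene is called higher or lower in Nuc where limma's p, after Benjamini-Hochberg adjustment over all 12791 genes, is under 0.05. Every fit was repeated with each of the 7 libraries left out in turn. Calls that ended and list counts that moved by more than 1.5 times are given with the genes and lists below, as the highest adjusted p reached and the libraries concerned.

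Acly itself was lower in Nuc than in Cyto. Its log2 level was 9.89, 9.67 and 9.67 in the Cyto libraries and 9.24, 9.07, 9.18 and 8.98 in the Nuc libraries, and every Nuc library was below every Cyto library. The log2 fold change was -0.62 ± 0.10, a 1.54-fold difference (adjusted p = 1.42e-04). The WT mean was 10.21 ± 0.06 and the KO mean 5.87 ± 0.21, so both lines carried far more Acly signal than KO and less than WT. The sources used here do not say how reads of the human construct were assigned to the mouse gene. The Nuc and Cyto libraries thus differed in their Acly signal as well as in the added targeting sequence, and whether this bears on the results below was not tested.

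Of the 12791 genes, 3963 were called (31%), 1961 of them higher in Nuc (15.3%) and 2002 lower in Nuc (15.7%). Most differences were small: the median size among called genes was 0.53 on the log2 scale, and 780 genes (6.1%) were both called and at least 2-fold apart, 486 of them higher in Nuc. At least 8-fold differences were found for 32 genes higher and 43 genes lower in Nuc. The groups did not overlap for 4621 genes (36.1%). The first principal component of the 7 libraries held 53.8% of their variance and separated Nuc from Cyto, and the second held 14.96% and set Nuc library 4 apart from the other Nuc libraries. Without Nuc library 4, 4108 genes were called. Mitochondrially encoded transcripts took 4.16% ± 0.0534 of the nominal total in Nuc and 4.07% ± 0.33 in Cyto, a difference smaller than the spread (exact permutation test, two-sided p = 0.629, the smallest possible being 0.0571).

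The lines also differed by chromosome. With chromosomes taken from RefSeq (GRCm38.p6) by gene symbol for 12355 genes, 339 of 618 genes on chromosome 6 were called higher in Nuc (54.9%) and 38 lower, and their median log2 fold change was 0.49. On the X chromosome 205 of 398 genes were called lower in Nuc (51.5%) and 18 higher, with a median of -0.42. Medians above 0.2 were also found for chromosomes 8 (0.26) and 9 (0.23), and medians below -0.2 for chromosomes 13 (-0.24) and 14 (-0.26), while the other 14 lay between -0.17 and 0.06 and the median of all genes was 0.00.

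The shifts were alike in all libraries of a line. Relative to the WT mean, the median gene of chromosome 6 stood at 0.31, 0.28, 0.29 and 0.27 in the Nuc libraries and at -0.15, -0.17 and -0.16 in the Cyto libraries. For the X chromosome the values were 0.03, 0.02, 0.02 and -0.05 in Nuc and 0.41, 0.43 and 0.45 in Cyto, and the KO libraries were at 0.47 to 0.55. In the separate libraries in 1 mM glucose the medians of Nuc minus Cyto were 0.45 for chromosome 6 and -0.45 for X, 0.22 for chromosome 8, -0.19 for 13 and -0.16 for 14. They differed between media for chromosome 9, at 0.06 in 1 mM, and for chromosome 3, at -0.34 in 1 mM against 0.02 in 10 mM. DNA copy number was not measured, and why chromosomes differ was not tested. After the median of each chromosome had been removed from each library, a setting chosen after seeing the data, 3080 of 12791 genes were called. Of these 1523 were higher and 1557 lower in Nuc. These totals are the background of list counts in that setting, while 15.3% and 15.7% belong to the fit without this step. Apart from the cell type markers, the list counts in that setting are given below as counts with chromosome medians removed. So are the values of named genes whose call changed or whose difference moved by more than 1.5 times.

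**Figure D1:**
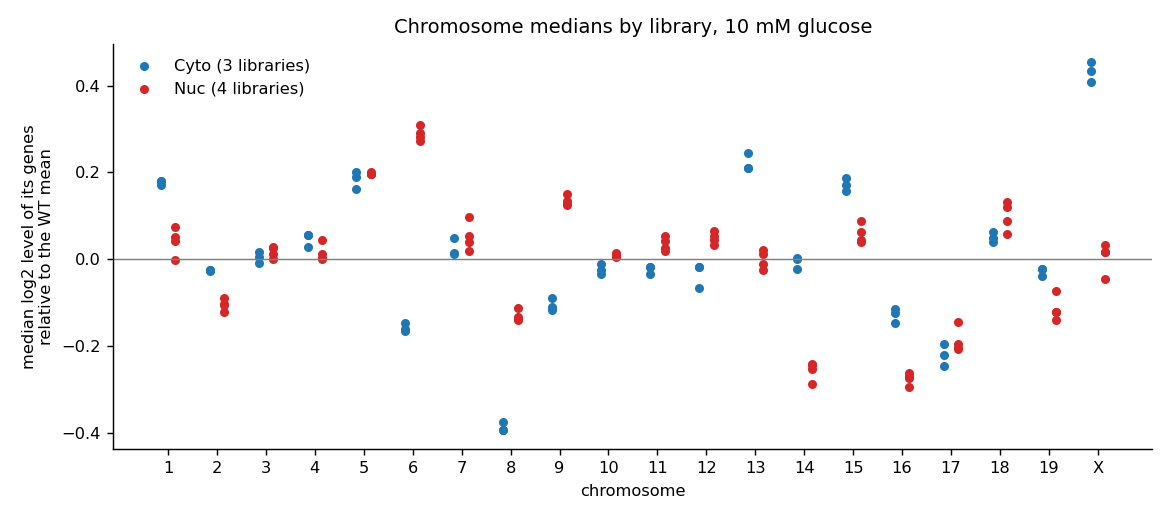
Median log2 level of the genes of each chromosome relative to the WT mean (y axis, log2) for each of the 3 Cyto and 4 Nuc libraries in 10 mM glucose (points), by chromosome (x axis). Nuc libraries lie above Cyto libraries on chromosomes 6, 8 and 9 and below them on 13, 14 and X, and the points of a line lie close together.

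Sterol synthesis genes were lower in Nuc. Of 21 measured genes of the pathway 13 were called lower and 0 higher, against 15.7% and 15.3% of all genes, and the median log2 fold change was -0.39. With chromosome medians removed 13 were lower and 1 higher, Tm7sf2 (a sterol C14 reductase, 0.51 ± 0.16). When all libraries were set to the same median 2 were called higher, Tm7sf2 and Cyp51, and without Cyto library 4 or without Nuc library 2 the count of higher genes was 1. At the entry from acetyl-CoA, Acat2, which joins acetyl-CoA units (-0.29 ± 0.09, with an adjusted p of up to 0.0768 without Cyto library 4 or Nuc library 2) and Hmgcs1, which makes HMG-CoA (-0.66 ± 0.09, and -0.43 ± 0.09 with chromosome medians removed), were lower. Between mevalonate and the isoprenoids Pmvk (-0.67 ± 0.18), Idi1 (-0.42 ± 0.08, not called with chromosome medians removed) and Fdps, the farnesyl diphosphate synthase (-0.56 ± 0.13), were lower, while Mvk (-0.06 ± 0.11), Mvd (0.03 ± 0.16) and Ggps1 (-0.16 ± 0.12) were not called. Fdft1, the squalene synthase that commits farnesyl diphosphate to sterols, was at 7.08, 7.04 and 7.15 in Cyto and at 5.66, 5.68, 5.86 and 5.95 in Nuc. The groups did not overlap, and the log2 fold change was -1.30 ± 0.09 (adjusted p = 3.92e-08). In bulk RNA a lower level in every cell and fewer cells with the transcript cannot be told apart.

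Between lanosterol and cholesterol Dhcr7, which acts on the sterol ring (-0.53 ± 0.18, adjusted p up to 0.237 without Cyto library 4 or Nuc library 2 or 4), Hsd17b7 (-0.58 ± 0.10) and Nsdhl, a sterol dehydrogenase (-0.93 ± 0.07), were lower. Nsdhl and Ebp lie on the X chromosome, and with chromosome medians removed Nsdhl was at -0.51 ± 0.08 and Ebp, the sterol isomerase, at 0.09 ± 0.12 instead of -0.34 ± 0.10. The call of Ebp ended without Cyto library 1 or 4 or Nuc library 1 or 2 (adjusted p up to 0.0931). Cyp51 (0.19 ± 0.07), Msmo1 (-0.16 ± 0.08), Sc5d (-0.11 ± 0.11) and Lss (0.00 ± 0.18) were not called. With chromosome medians removed Msmo1 (-0.41 ± 0.08) and Sc5d (-0.35 ± 0.10) were called lower.

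**Figure D2:**
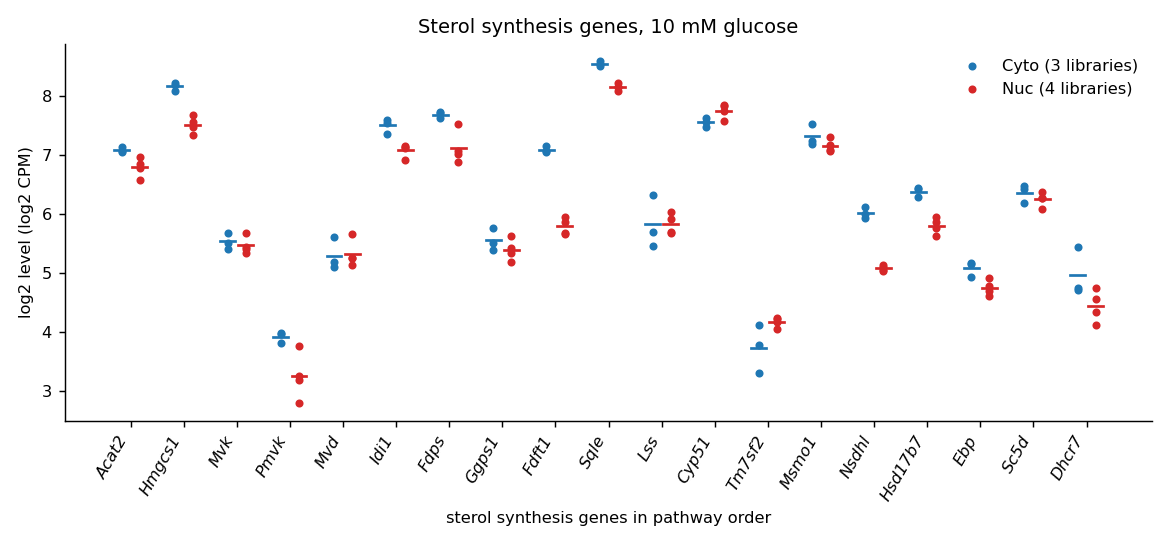
Log2 levels (y axis) of 19 sterol synthesis genes in pathway order (x axis) in each Cyto and Nuc library in 10 mM glucose (points), with a short bar at each group mean. Fdft1 lies between 5.66 and 5.95 in the Nuc libraries and between 7.04 and 7.15 in the Cyto libraries, and Nuc means of Hmgcs1, Idi1 and Nsdhl also lie below the Cyto means.

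Among the genes that control the pathway, Insig1, the ER protein that holds SREBP back and is itself an SREBP target, was at 6.95, 6.97 and 6.96 in Cyto and 5.53, 5.54, 5.43 and 5.48 in Nuc. The groups were far apart relative to their spread, with a log2 fold change of -1.46 ± 0.09. Srebf2, the main SREBP of sterol genes, was lower as well (-0.47 ± 0.06), and Npc1, needed for cholesterol to leave lysosomes, was higher (0.48 ± 0.09). Srebf1 (0.04 ± 0.16) and Scap (-0.03 ± 0.08) were not called, though Scap was called lower with chromosome medians removed (-0.26 ± 0.08). In all, 3 of 13 measured control and uptake genes were higher and 6 lower, against 15.3% and 15.7% of all genes. With chromosome medians removed 1 was higher and 4 were lower. Of 11 measured genes of the sterol-sensing LXR receptors and their efflux targets 2 were higher and 3 lower, and 0 and 1 with chromosome medians removed. The count of higher genes fell to 1 without Cyto library 1 or 4 or Nuc library 1 or 3. Abca1, which exports cholesterol to apolipoproteins and is an LXR target, was at 8.30, 8.48 and 8.23 in Cyto and 6.79, 6.99, 6.96 and 6.29 in Nuc, with no overlap and a log2 fold change of -1.58 ± 0.18. WT stood close to Nuc, at 6.79 ± 0.18, and KO at 5.33 ± 0.34, so that Cyto was the high group. Lpcat3, a phospholipid acyltransferase on chromosome 6, was higher (0.45 ± 0.08, and 0.00 ± 0.08 with chromosome medians removed).

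Because these genes are known targets of SREBP, the promoter windows of the list (RefSeq, GRCm38.p6, 250 bases before to 50 bases after a gene start) were searched for the sterol response element in the form TCACNCCAC on either strand. It was found in 1 of the 16 members with a window, Hmgcs1, and in 1.24% of all 32851 windows. The window of Hmgcs1 is printed with the match in capitals, from chr13:119690101-119690400 on the plus strand. It is shown as the entry enzyme whose transcript differed and whose window holds the element.
Hmgcs1: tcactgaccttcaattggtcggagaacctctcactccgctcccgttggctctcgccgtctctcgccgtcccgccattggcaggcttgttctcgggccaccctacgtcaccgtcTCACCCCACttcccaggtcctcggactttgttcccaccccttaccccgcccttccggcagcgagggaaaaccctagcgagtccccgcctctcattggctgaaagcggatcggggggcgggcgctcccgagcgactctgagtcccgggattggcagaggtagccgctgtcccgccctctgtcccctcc

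Of 18 measured genes of acetyl-CoA supply, Acly among them, 1 was higher and 6 lower (1 and 5 with chromosome medians removed), with a median of -0.18. List counts in this paragraph stand beside 15.3% of all genes called higher and 15.7% called lower. Slc25a1, the mitochondrial citrate exporter that feeds ACLY, was lower (-0.45 ± 0.08, and -0.28 ± 0.08 with chromosome medians removed), as was Aco1, the cytosolic aconitase (-0.61 ± 0.07), and Pdk4, a kinase that inhibits pyruvate dehydrogenase (-0.72 ± 0.15). Pdk4 lies on chromosome 6 and was at -1.17 ± 0.15 with chromosome medians removed. Pdha1, the X-linked pyruvate dehydrogenase subunit, was lower (-0.52 ± 0.06) but at -0.10 ± 0.06 with chromosome medians removed. Acss2, which makes acetyl-CoA from acetate, was not called (-0.13 ± 0.16). Of 17 fatty acid synthesis genes 1 was higher and 6 lower (1 and 7 with chromosome medians removed), and 0 higher without Cyto library 2 or Nuc library 1 or 3. Fasn, the fatty acid synthase, was at 9.28, 9.11 and 9.03 in Cyto and 8.56, 8.51, 8.55 and 8.71 in Nuc, without overlap (-0.56 ± 0.08), and Acaca, the acetyl-CoA carboxylase, was not called (-0.13 ± 0.19). The desaturases Scd2 (-0.67 ± 0.06), Scd1 (-0.32 ± 0.08) and Fads2 (-0.29 ± 0.06) and the acyl-CoA synthetases Acsl3 (-0.58 ± 0.09) and Acsl4 (-0.99 ± 0.11) were lower. Acsl4 lies on the X chromosome and was at -0.57 ± 0.10 with chromosome medians removed. Of 14 lipid droplet genes 3 were higher and 3 lower (2 and 3 with chromosome medians removed), the latter 1 without Cyto library 2, among them the droplet coat genes Plin2 (-0.42 ± 0.08) and Plin4 (0.48 ± 0.08).

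Few genes of the histone acetylation machinery were called. Of 34 measured 2 were higher and 4 lower (0 higher without Cyto library 1, 1 higher without Nuc library 1, 1 lower without Cyto library 2 and 2 lower without Nuc library 1 or 4). With chromosome medians removed 1 was higher and 3 lower. These counts are below the shares for all genes, and the median of the list was -0.05. Among 11 acetyltransferases only Kat2a was called (-0.23 ± 0.07, adjusted p up to 0.0636 without Cyto library 2 or 4), while Ep300 (-0.35 ± 0.20), Crebbp (-0.26 ± 0.21) and Kat2b (0.02 ± 0.14) were not. Among deacetylases Hdac7 (-0.42 ± 0.07) and the X-linked Hdac6 (-0.43 ± 0.13) were lower, and Hdac9, at a low level, was higher (1.27 ± 0.39). Hdac6 lost its call with chromosome medians removed and without Cyto library 2 or Nuc library 1 or 4 (adjusted p up to 0.102), and Hdac9 without Cyto library 1 or Nuc library 1 (up to 0.106). The reader Brd2 was not called (0.04 ± 0.06). These are transcript levels, and acetylation itself was not measured here.

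Glycolysis genes were lower in Nuc at most steps. Of 23 measured genes 13 were called lower and 4 higher (median -0.25), against 15.7% and 15.3% of all genes. The 4 higher genes, Slc2a3 (1.57 ± 0.43), Hk2 (0.59 ± 0.09), Tpi1 (0.34 ± 0.09) and Eno2 (0.64 ± 0.14), all lie on chromosome 6, and with chromosome medians removed 0 were higher and 13 lower. They were then at 1.12 ± 0.43, 0.14 ± 0.09, -0.11 ± 0.10 and 0.19 ± 0.14, none of them called. Pgk1, an X-linked kinase of the pay-off phase, was at 9.67, 9.67 and 9.81 in Cyto and 8.76, 8.64, 8.72 and 9.001 in Nuc. These groups did not overlap (-0.94 ± 0.08, and -0.51 ± 0.09 with chromosome medians removed). The other lower genes included Pfkp, an isoform of the phosphofructokinase that commits glucose to glycolysis (-0.84 ± 0.08), Aldoa (-0.60 ± 0.08), Eno1 (-0.66 ± 0.08), Pkm (-0.33 ± 0.07, and -0.56 ± 0.07 with chromosome medians removed) and the lactate exporter Slc16a1 (-0.83 ± 0.08). Gapdh, also on chromosome 6, was not called (0.08 ± 0.09), but with chromosome medians removed it was called lower (-0.37 ± 0.09, adjusted p = 0.00805 by limma). The glucose transporter Slc2a1 was not called (-0.04 ± 0.08).

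Of 7 pentose phosphate genes 4 were lower and 2 higher (3 and 1 with chromosome medians removed), the latter 0 without Cyto library 1 or Nuc library 3 and 1 without Cyto library 2 or 4 or Nuc library 2 or 4. G6pdx, the X-linked first enzyme of the NADPH-producing branch, was at 6.79, 6.61 and 6.61 in Cyto and 5.70, 5.57, 5.83 and 5.53 in Nuc, with no overlap (-1.01 ± 0.11, and -0.59 ± 0.11 with chromosome medians removed). Pgd, the second NADPH-producing enzyme (-0.51 ± 0.09), Rpia (-0.99 ± 0.14) and Tkt (-0.48 ± 0.10) were lower too, though Tkt was not called with chromosome medians removed. Of 19 TCA cycle genes 7 were lower, including Cs, the citrate synthase (-0.29 ± 0.05), and Sdha (-0.37 ± 0.06, not called with chromosome medians removed), and 4 were higher, including Mdh1 (0.42 ± 0.09). With chromosome medians removed 5 were lower and 2 higher. Of 8 hexosamine genes 2 were higher and 2 lower, and 1 and 2 with chromosome medians removed. In this pathway the rate-limiting amidotransferases moved in opposite directions: Gfpt1, on chromosome 6, was higher (0.93 ± 0.09, and 0.48 ± 0.09 with chromosome medians removed) and the less abundant Gfpt2 lower (-1.34 ± 0.20). Of 17 hypoxia response genes 5 were lower, among them Vegfa (-0.48 ± 0.10) and Mxi1 (-0.73 ± 0.09), and 2 higher, and 5 and 0 with chromosome medians removed. The counts of this paragraph stand beside 15.7% of all genes called lower and 15.3% called higher. The count of higher hypoxia genes is near that share.

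Collagens were higher in Nuc. Of 22 measured chains 14 were called higher and 0 lower, with a median of 0.60, and 15 and 0 with chromosome medians removed. The most abundant were the type I chains Col1a1 (0.54 ± 0.07, not called after quantile normalization) and Col1a2 (0.70 ± 0.05), the latter on chromosome 6 and at 0.25 ± 0.05 with chromosome medians removed, and the fibrillar chain Col3a1 (0.96 ± 0.06). The type VI chains, which form beaded filaments around cells, were among the clearest: Col6a2 was at 8.90, 8.77 and 8.83 in Cyto and 10.04, 10.05, 10.07 and 10.10 in Nuc. No library overlapped (1.23 ± 0.05, adjusted p = 6.37e-11), and Col6a1 (1.02 ± 0.05) and Col6a3 (0.66 ± 0.11) were higher with it. The basement membrane chains Col4a1 (0.76 ± 0.05) and Col4a2 (0.67 ± 0.05), and Col12a1 on fibril surfaces (1.00 ± 0.08), were higher as well. Col4a1 and Col4a2 lie on chromosome 8 and were at 0.50 ± 0.05 and 0.42 ± 0.06 with chromosome medians removed. The WT mean was 9.87 ± 0.03 for Col6a2, against 10.07 ± 0.02 in Nuc. For Col1a1 WT stood at 13.52 ± 0.03, between the Cyto and Nuc means, and for Col3a1 at 11.78 ± 0.04, against 11.71 ± 0.08 in Nuc.

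Genes that process collagen were split. Of 15 measured 8 were higher and 3 lower, against 15.3% and 15.7% of all genes, but 3 and 2 with chromosome medians removed. The count of higher genes was 2 without Cyto library 4, 3 without Cyto library 2, and 4 or 5 without Nuc library 1, 2 or 3. P4ha3, a prolyl hydroxylase subunit, was higher (1.08 ± 0.09), while the crosslinking oxidases Lox (-0.43 ± 0.06) and Loxl4 (-0.79 ± 0.08) were lower and their relative Loxl3, on chromosome 6, was higher (0.65 ± 0.07, and 0.20 ± 0.07 with chromosome medians removed). Of 14 elastic fibre genes 5 were higher and 2 lower (7 and 2 with chromosome medians removed). Mfap5, a microfibril protein gene on chromosome 6, was at 4.49, 4.40 and 4.02 in Cyto and 6.19, 6.29, 6.32 and 6.51 in Nuc, well apart (2.02 ± 0.14), and Ltbp2 was higher (1.73 ± 0.23) and Fbln1 lower (-0.77 ± 0.08). Of 18 proteoglycan and hyaluronan genes 6 were higher and 6 lower (7 and 4 with chromosome medians removed). Fmod, which encodes the collagen-binding proteoglycan fibromodulin, was at 3.75, 3.95 and 3.79 in Cyto and 6.64, 6.75, 6.80 and 6.80 in Nuc, against 4.28 ± 0.06 in WT. It was 7.56-fold higher in Nuc (2.92 ± 0.11), and the hyaluronan synthase Has2 was higher (1.32 ± 0.10), while the large proteoglycan Vcan (-0.83 ± 0.14) and the hyaluronan receptor Cd44 (-0.49 ± 0.09) were lower.

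Among matrix proteases and inhibitors 9 of 25 were higher and 7 lower, against 15.3% and 15.7% of all genes. With chromosome medians removed 10 were higher and 7 lower. Adamts9, a versican-cleaving protease on chromosome 6, had the highest log2 fold change among called genes of at least median level whose groups did not overlap. Its levels were 3.71, 3.56 and 3.60 in Cyto and 6.80, 6.74, 6.72 and 6.32 in Nuc, a 8.13-fold difference (3.02 ± 0.10, and 2.57 ± 0.10 with chromosome medians removed). WT stood at 5.77 ± 0.07 and KO at 5.73 ± 0.07. Mmp2, a gelatinase, was at 9.46, 9.44 and 9.38 in Cyto and 11.05, 11.16, 11.07 and 11.20 in Nuc, with no overlap (1.69 ± 0.05), and Ctsk, a collagen-degrading cathepsin, was higher too (1.02 ± 0.09). For Mmp2 WT stood at 10.95 ± 0.04, nearer to Nuc, and KO at 9.28 ± 0.07, nearer to Cyto. The plasminogen activator Plau was lower (-1.59 ± 0.10), and so was Mmp9 (-0.84 ± 0.14).

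Of 34 adhesion and laminin genes 13 were higher and 5 lower (12 and 5 with chromosome medians removed), the latter 3 without Cyto library 1. Among all genes 15.3% were called higher and 15.7% lower, and the count of lower adhesion genes was near that share. The collagen-binding integrin subunits Itga1 (1.495 ± 0.15) and Itga11 (1.00 ± 0.11) were higher, as were the glycoproteins Tnc (0.82 ± 0.08) and Sparc (0.72 ± 0.07). Svep1, a large extracellular adhesion protein, was at 4.44, 4.53 and 4.26 in Cyto and 6.88, 6.88, 6.88 and 6.24 in Nuc, above every Cyto library (2.31 ± 0.15). Itgb8, a subunit of the integrin that activates latent TGF-beta, went the other way, at 4.05, 4.12 and 4.07 in Cyto and 1.52, 1.24, 0.64 and -0.06 in Nuc (-3.25 ± 0.27). Its lowest Nuc library was number 4.

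Of 18 contractile genes 6 were higher and 4 lower, against 15.3% and 15.7% of all genes, a mixed set (6 and 5 with chromosome medians removed). Tagln, an actin-binding smooth muscle marker, was at 6.09, 6.31 and 6.55 in Cyto and 8.14, 7.96, 8.11 and 8.44 in Nuc. It was higher in every Nuc library (1.85 ± 0.14), and WT stood at 4.59 ± 0.17. Myl9, the regulatory myosin light chain (1.501 ± 0.11), and Acta2, smooth muscle actin (0.60 ± 0.07), were higher, while Myh9, non-muscle myosin (-0.37 ± 0.07, -0.25 ± 0.08 with chromosome medians removed, and not called after quantile normalization), Vcl (-0.48 ± 0.10, not called with chromosome medians removed) and Tpm2 (-0.53 ± 0.10) were lower. Srf, the factor that drives many of these genes, was lower (-0.26 ± 0.06).

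Targets of the mechanosensitive coactivator YAP and its TEAD partners were mostly lower: 10 of 18 measured were lower and 3 higher, with a median of -0.39, and 9 and 1 with chromosome medians removed. Ankrd1 was at 4.68, 4.58 and 4.60 in Cyto and -1.78, -1.93, -2.19 and -1.90 in Nuc. All Nuc libraries were near the low end of the table (-6.57 ± 0.35). WT (1.08 ± 0.27) and KO (0.13 ± 0.74) lay between, far below Cyto and above Nuc. The log2 fold change from WT was 3.54 ± 0.35 in Cyto and -3.03 ± 0.32 in Nuc, so both lines stood apart from WT. Ccn1, a secreted matricellular protein, was lower (-1.08 ± 0.09), as were Axl (-0.69 ± 0.07), Amotl2 (-0.42 ± 0.09, and -0.66 ± 0.09 with chromosome medians removed) and Ajuba (-0.58 ± 0.11, not called with chromosome medians removed). In WT Ccn1 stood at 8.82 ± 0.06. Tead4, on chromosome 6, was higher (0.99 ± 0.20, and 0.54 ± 0.20, not called, with chromosome medians removed).

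The TEAD element GGAATG, searched on both strands, was present in the windows of 8 of 11 YAP and TEAD targets with a window and in 14.66% of all windows. The list was written from known targets, so the share describes it and no more. The windows of Ankrd1 (chr19:36119795-36120094, minus strand) and Ccn1 (chr3:145649936-145650235, minus strand) are printed with the matches in capitals, Ankrd1 as the target with the largest difference and Ccn1 as an abundant one.
Ankrd1: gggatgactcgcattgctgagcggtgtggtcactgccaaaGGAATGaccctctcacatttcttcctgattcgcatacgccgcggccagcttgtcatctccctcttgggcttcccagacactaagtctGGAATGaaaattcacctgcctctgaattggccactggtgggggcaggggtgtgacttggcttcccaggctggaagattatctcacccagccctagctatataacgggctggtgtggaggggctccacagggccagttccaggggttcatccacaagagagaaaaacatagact
Ccn1: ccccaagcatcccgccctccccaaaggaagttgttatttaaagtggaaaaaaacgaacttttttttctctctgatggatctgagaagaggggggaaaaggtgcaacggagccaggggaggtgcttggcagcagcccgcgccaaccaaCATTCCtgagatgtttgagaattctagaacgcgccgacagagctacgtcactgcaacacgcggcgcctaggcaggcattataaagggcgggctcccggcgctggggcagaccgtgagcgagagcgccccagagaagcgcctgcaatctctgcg

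In the TGF-beta family 11 of 26 genes were higher and 5 lower (10 and 3 with chromosome medians removed), the latter 3 without Cyto library 1 or 4 or Nuc library 3 or 4. These counts stand beside 15.3% of all genes called higher and 15.7% called lower. The ligand Tgfb3 (0.58 ± 0.09) and the target genes Id1 (0.41 ± 0.11) and Id2 (0.73 ± 0.11) were higher. Tgfb1 was not called (0.22 ± 0.14). Grem1, a secreted BMP antagonist, was at 9.46, 9.52 and 9.58 in Cyto and 8.55, 8.34, 8.46 and 8.40 in Nuc, with no overlap (-1.08 ± 0.06), and the activin subunit Inhbb was lower (-2.76 ± 0.23). For Grem1 WT stood at 8.57 ± 0.03 and KO at 8.74 ± 0.06, both nearer to Nuc than to Cyto.

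Immediate early genes, which growth factors induce within minutes, were lower in Nuc. Of 22 measured 13 were lower and 2 higher (median -0.47), and 14 and 2 with chromosome medians removed. The count of higher genes was 1 without Cyto library 1 or 2 or Nuc library 3. Egr1, a zinc finger factor, was at 8.28, 8.59 and 8.27 in Cyto and 7.31, 7.44, 7.19 and 7.13 in Nuc, against 8.66 ± 0.05 in WT. The groups did not overlap (-1.11 ± 0.09). Fos (-1.14 ± 0.18), Junb (-0.81 ± 0.13), Myc (-0.80 ± 0.08), Ier3 (-0.95 ± 0.11) and Maff (-1.03 ± 0.14) were lower, and Klf10 was higher (0.67 ± 0.13). The list of ERK feedback genes, made of phosphatases, Sprouty inhibitors and ETS factors, followed the same direction. Of its 15 genes 8 were lower and 1 higher, also with chromosome medians removed. The phosphatases Dusp1 (-1.20 ± 0.13) and Dusp6 (-1.05 ± 0.18) and the inhibitor Spry2 (-0.48 ± 0.13, not called with chromosome medians removed) were lower. The ETS factor Etv5 was higher (0.40 ± 0.12, adjusted p up to 0.0542 without Cyto library 2).

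Among secreted inflammatory factors and genes of the NF-kappaB pathway more were called lower than higher. Of 17 measured factors 8 were lower and 1 higher, also with chromosome medians removed (median -0.66). The exception was Cxcl12, a homeostatic chemokine on chromosome 6 (0.68 ± 0.06, and 0.23 ± 0.06 with chromosome medians removed). Ccl2, which attracts monocytes, was at 6.16, 6.07 and 6.27 in Cyto and 3.75, 3.33, 3.71 and 3.83 in Nuc, 5.7-fold apart (-2.51 ± 0.13), while WT stood at 3.23 ± 0.17 and KO at 6.25 ± 0.10. The neutrophil chemokine Cxcl1 was at 4.06, 4.32 and 4.19 in Cyto and 2.05, 1.37, 1.86 and 2.31 in Nuc, without overlap (-2.29 ± 0.19). Ptgs2, the inducible prostaglandin synthase, was at 5.91, 6.12 and 6.06 in Cyto and 4.34, 4.19, 4.24 and 4.07 in Nuc (-1.82 ± 0.09), with all Nuc libraries lower. Of 13 NF-kappaB pathway genes 6 were lower and 0 higher, 6 and 0 with chromosome medians removed. They were the subunits Rela (-0.60 ± 0.07) and Nfkb2 (-0.70 ± 0.07), the inhibitors Nfkbia (-0.65 ± 0.14), Nfkbib (-0.48 ± 0.17, adjusted p up to 0.143 without Cyto library 1 or 2 or Nuc library 1, 2 or 3) and Nfkbie (-1.30 ± 0.15), and Nfkbiz (-1.08 ± 0.11). Nfkbia is a classic feedback target. Nfkb1 (-0.18 ± 0.07) and Tnfaip3 (-0.62 ± 0.24) were not called.

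A match to the NF-kappaB consensus, on either strand, was present in the windows of 4 of 14 secreted factors and 5 of 9 pathway genes with a window, and in 4.51% of all windows. The window of Cxcl1 (chr5:90890995-90891294, plus strand) is printed with the matching bases in capitals, where 2 matches overlap, since it is the chemokine with the largest difference among members with a match.
Cxcl1: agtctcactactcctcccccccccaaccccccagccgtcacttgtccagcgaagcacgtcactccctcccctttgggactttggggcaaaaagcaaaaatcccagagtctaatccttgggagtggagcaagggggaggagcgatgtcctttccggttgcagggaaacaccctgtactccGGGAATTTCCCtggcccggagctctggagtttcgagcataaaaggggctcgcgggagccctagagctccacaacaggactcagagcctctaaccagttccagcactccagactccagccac

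**Figure D3:**
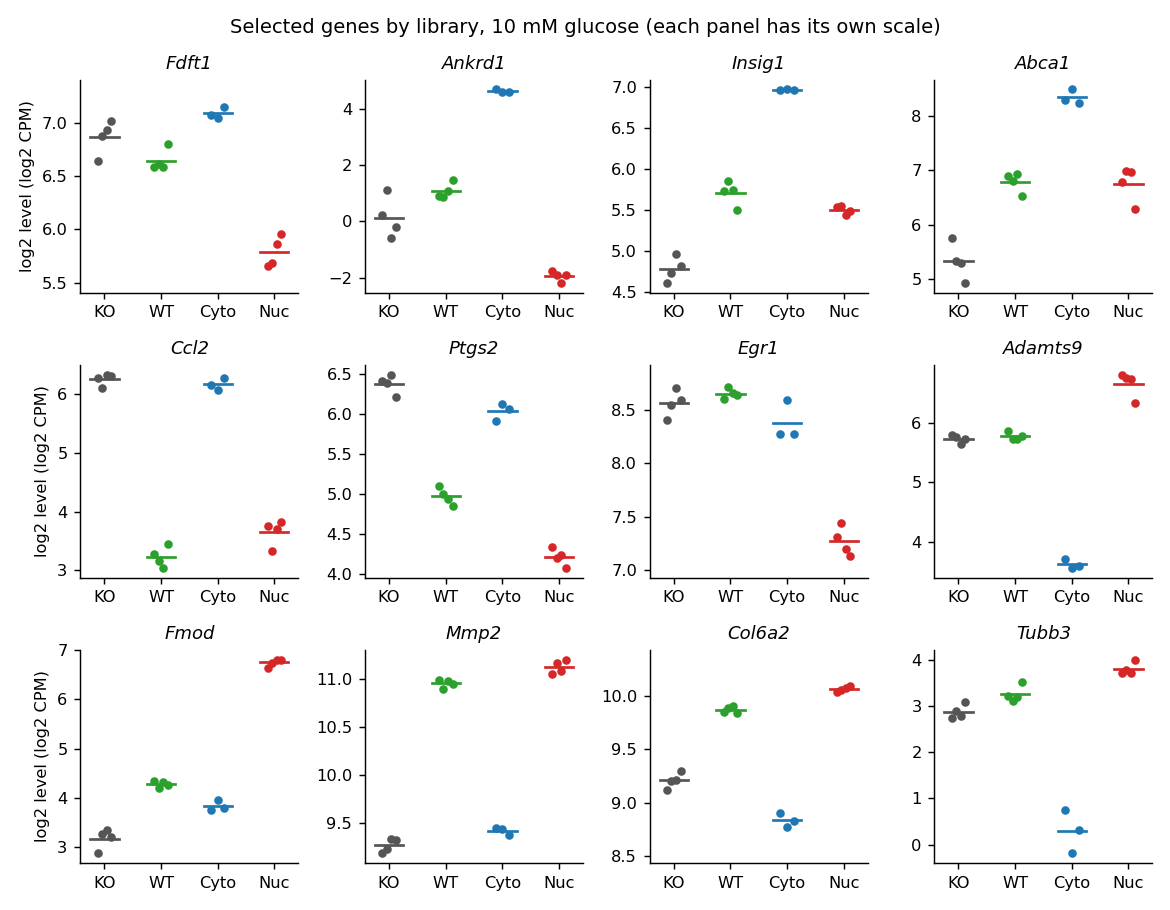
Log2 levels (y axis) of 12 genes in each library of KO, WT, Cyto and Nuc in 10 mM glucose (points) with group means (bars), 1 panel per gene. Ankrd1 is near the low end in Nuc, Fdft1, Ccl2, Ptgs2 and Abca1 are lower in Nuc than in Cyto, and Adamts9, Fmod, Mmp2, Col6a2 and Tubb3 are higher.

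Of 9 complement genes 3 were higher and 3 lower (3 and 2 with chromosome medians removed). C3, the central component, was at 5.06, 5.22 and 4.93 in Cyto and 3.19, 1.58, 0.55 and 1.18 in Nuc, lower in every Nuc library though these differed widely (-3.44 ± 0.40). C1ra (1.61 ± 0.08) and C1s1 (1.31 ± 0.10), the proteases of the first component and both on chromosome 6, were higher, and at 1.16 ± 0.08 and 0.86 ± 0.10 with chromosome medians removed. Genes of antigen processing were higher in 6 of 13 cases and lower in 1, also with chromosome medians removed, and lower in 3 without Nuc library 4. The peptide transporter Tap2 was at 4.28, 3.98 and 4.14 in Cyto and 5.72, 5.65, 5.59 and 6.03 in Nuc, with no overlap (1.61 ± 0.15), and Tap1 (1.31 ± 0.15) and the immunoproteasome subunit Psmb9 (2.02 ± 0.21) were higher. The class I chain H2-K1 was lower (-2.07 ± 0.41), and its reads may be split with near-identical class I genes. Of 17 interferon response genes 3 were higher and 2 lower, including Irf1 (-0.50 ± 0.13), and 2 and 2 with chromosome medians removed. Over all genes 15.3% were called higher and 15.7% lower.

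Cell cycle genes divided by phase, and their counts stand beside 15.3% of all genes called higher and 15.7% called lower. Of 20 genes of G2 and mitosis 12 were higher and 0 lower in Nuc (median 0.26), and 11 and 0 with chromosome medians removed. Without Cyto library 4 the count of higher genes was 8. They included the kinase Aurkb (0.34 ± 0.07), the proliferation marker Mki67 (0.47 ± 0.12), the cyclin Ccnb2 (0.56 ± 0.09, and 0.32 ± 0.09 with chromosome medians removed) and Foxm1, a mitotic transcription factor on chromosome 6 (0.87 ± 0.09, and 0.41 ± 0.08 with chromosome medians removed). Of 15 genes of replication licensing 2 were higher and 6 lower (0 and 8 with chromosome medians removed, and 1 higher without Cyto library 2 or 4 or Nuc library 2 or 3), with Mcm6 lower (-0.63 ± 0.06) and Mcm2, on chromosome 6, higher (0.55 ± 0.05, and 0.10 ± 0.05 with chromosome medians removed). Among nucleotide and DNA synthesis genes 2 of 14 were higher, including Rrm2 (0.64 ± 0.06), and 4 lower, including Pcna (-0.42 ± 0.09), the same counts as with chromosome medians removed, and 1 was higher without Cyto library 1 or 4 or Nuc library 4. Ccnd2, a D cyclin on chromosome 6, was at 8.99, 9.17 and 8.89 in Cyto and 10.46, 10.42, 10.43 and 10.12 in Nuc, with no overlap (1.34 ± 0.09, and 0.89 ± 0.08 with chromosome medians removed). Ccnd1 (-0.02 ± 0.05) and the CDK inhibitor Cdkn1a (-0.08 ± 0.07) were not called, and Trp53 was lower (-0.45 ± 0.06).

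Stress pathways showed no shared direction, and their counts stand beside 15.3% of all genes called higher and 15.7% called lower. Of 19 genes of the amino acid response 3 were higher (5 without Nuc library 4), among them the cystine transporter Slc7a11 (0.95 ± 0.16), and 4 lower, among them Chac1 (-0.70 ± 0.10), and 3 and 5 with chromosome medians removed. Of 23 genes of ER folding 4 were higher, including Herpud1 (0.65 ± 0.07, and 0.39 ± 0.07 with chromosome medians removed), and 1 lower (3 without Nuc library 4). With chromosome medians removed 2 were higher and 3 lower, so that the balance of the list turned, and the chaperone Hspa5 was not called (-0.19 ± 0.07). Of 16 antioxidant and iron genes 5 were higher, including Hmox1, which degrades heme (1.03 ± 0.09), and Nqo1 (0.89 ± 0.09), and 3 lower (2 to 3 higher when Cyto library 1 or 2 or Nuc library 2, 3 or 4 was left out, and 5 lower without Nuc library 4), including the transferrin receptor Tfrc (-0.90 ± 0.13). With chromosome medians removed 3 were higher and 3 lower.

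Guidance and Wnt genes, which steer migration and tissue patterning, differed often. Of 34 guidance genes 16 were higher in Nuc and 3 lower, and 13 and 3 with chromosome medians removed. Sema3a, a secreted repellent, was at 5.37, 5.33 and 5.29 in Cyto and 7.10, 7.16, 7.24 and 6.80 in Nuc, above all Cyto libraries (1.74 ± 0.18). The semaphorin receptors Plxnb1 (2.76 ± 0.33) and Plxnd1, on chromosome 6 (0.88 ± 0.10, and 0.43 ± 0.11 with chromosome medians removed), and the netrin receptor Unc5c (1.88 ± 0.27) were higher, and Sema3f (-0.68 ± 0.12) and Slit3 (-0.96 ± 0.21) were lower. Of 21 Wnt genes 10 were higher, among them the receptors Ror1 (1.64 ± 0.15) and Fzd8 (1.11 ± 0.10), and 5 lower, among them Wnt10b (-1.23 ± 0.13), and 9 and 6 with chromosome medians removed. Of 30 growth factor genes 9 were higher and 5 lower, but 6 higher and 8 lower with chromosome medians removed. Over all genes 15.3% were called higher and 15.7% lower, and the count of lower growth factor genes was near that share. The IGF-binding proteins Igfbp5 (1.69 ± 0.14) and Igfbp6 (-1.81 ± 0.10) went in opposite directions, Igf1 was higher (1.18 ± 0.30), and Pdgfb, the ligand of the PDGF receptor beta, was lower. Its levels were 3.57, 3.54 and 3.28 in Cyto and -1.20, -1.48, 1.00 and -0.30 in Nuc, where library 3 stood above the others (-3.96 ± 0.47).

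Positional and lineage factors were higher in 11 and lower in 4 of 39 cases, and in 8 and 6 with chromosome medians removed. Among all genes 15.3% were called higher and 15.7% lower. Hoxa7, Hoxa9, Hoxa10 and Hoxa11, all on chromosome 6, were higher by 0.27 to 0.38 and were not called with chromosome medians removed, and the call of Hoxa11 ended without Cyto library 2 or 4 or Nuc library 3 or 4 (adjusted p up to 0.133). Prrx1, a limb and mesenchyme factor, was lower (-0.71 ± 0.10), and Shox2 (0.98 ± 0.16) and Twist1 (0.57 ± 0.13) were higher. Of 14 imprinted genes 5 were lower, including the amino acid transporter Slc38a4 (-2.94 ± 0.22), and 1 higher, Plagl1 (1.98 ± 0.24), also with chromosome medians removed. Of 12 tubulins 4 were higher and 2 lower, and 7 and 1 with chromosome medians removed. Tubb3, the isotype best known from neurons, was at 0.75, -0.18 and 0.32 in Cyto and 3.72, 3.77, 3.70 and 3.997 in Nuc (3.50 ± 0.20), and here Cyto was the group apart, since WT (3.26 ± 0.17) and KO (2.87 ± 0.15) were close to Nuc. Of 11 serpins 5 were lower and 1 higher (2 without Cyto library 4), Serpinf1 (0.96 ± 0.07), and 4 and 2 with chromosome medians removed. Serpina3g (-1.46 ± 0.13), Serpina3h (-1.35 ± 0.20) and Serpina3i (-1.39 ± 0.32) are near-identical copies among which reads may be split, and Serpinb9b was lower (-1.74 ± 0.12).

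**Figure D4:**
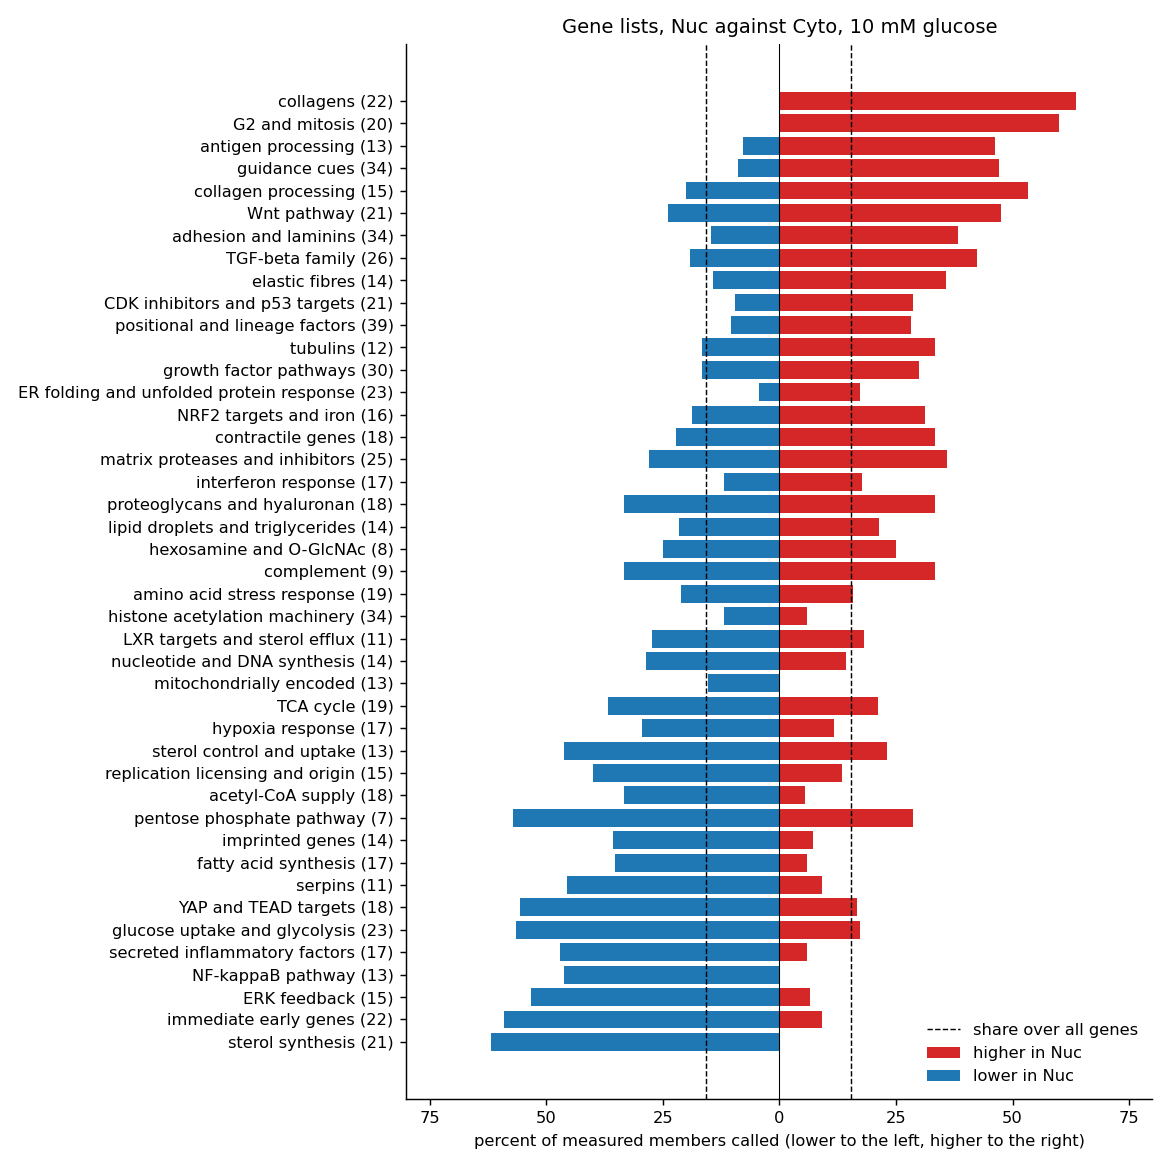
Percent of measured members of each gene list called higher (right) or lower (left) in Nuc than in Cyto in 10 mM glucose (x axis), with the number measured after each list name. Dashed lines mark the shares over all genes, 15.3% higher and 15.7% lower. Collagens and G2 and mitosis genes lie to the right, and sterol synthesis, glycolysis and immediate early genes to the left.

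Other genes at the ends of the comparison, among those of at least median level with no overlap, fall outside these lists. Kcnj15, a potassium channel, was at 4.19, 3.73 and 4.43 in Cyto and 6.77, 6.71, 6.48 and 6.06 in Nuc (2.39 ± 0.26). Capn6, a calpain without protease activity, was at 5.79, 5.85 and 5.87 in Cyto and 7.55, 7.74, 7.66 and 7.44 in Nuc (1.76 ± 0.07). Both were higher in every Nuc library. Nsg1, a protein of endosomal trafficking, was at 6.81, 6.80 and 6.69 in Cyto and 3.19, 3.34, 3.48 and 4.38 in Nuc, where library 4 was the highest (-3.17 ± 0.20). Lower in Nuc, again without overlap, were also the lipoprotein receptor gene Apobr (-2.09 ± 0.13), the phosphodiesterase Pde3b (-1.66 ± 0.19), the cell surface proteoglycan Gpc1 (-1.59 ± 0.07), Tnfaip2 (-1.52 ± 0.15) and the annexin Anxa8 (-1.48 ± 0.06). The means in WT, Cyto and Nuc were 4.28, 6.18 and 4.08 for Apobr and 3.85, 5.84 and 4.32 for Tnfaip2. They were 6.18, 6.70 and 5.04 for Pde3b, 6.97, 7.85 and 6.25 for Gpc1, and 6.12, 6.88 and 5.41 for Anxa8.

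A few genes were near silent in Nuc or in Cyto in 10 mM glucose. A gene was taken as such, by a rule written after the values were seen, where every library of one group was below a log2 level of 0 and every library of the other above 2. This held for 10 genes low in Nuc and 7 low in Cyto. Low in Nuc were Ankrd1, Kctd12, Mark1, Cldn34c1, Rin3, Trpv4, Cyria, Coro6, Zfp422 and Lrrc32. Mark1, a microtubule-affinity kinase, was at 2.13, 2.90 and 2.55 in Cyto, and Kctd12 was at 2.62, 2.38 and 3.00, and both were listed at the lowest value in all 4 Nuc libraries. WT and KO expressed Mark1 at 2.32 ± 0.28 and 3.90 ± 0.13. Kctd12 was low in KO too (-1.70 ± 1.70), and Cyria in WT (-1.30 ± 0.50). In 1 mM glucose the Nuc mean was again below 0 for all 10 of these genes, but the Cyto mean was not high for all. It was 3.65 for Ankrd1, 3.06 for Cyria, 2.96 for Mark1, 1.29 for Cldn34c1 and 1.27 for Zfp422. For Lrrc32 it was 1.03, for Kctd12 0.84, for Trpv4 0.30, for Rin3 -0.16 and for Coro6 -0.65. All but Trpv4 (-0.57 ± 0.23) were called lower in Nuc there. Low in Cyto were Slc16a7, Zfp518b, Gm6565, Atp8a1, Abi3bp, Prlr and Cnrip1. Slc16a7, a monocarboxylate transporter, was at -0.83, -1.22 and -0.74 in Cyto and 4.67, 5.60, 4.39 and 4.30 in Nuc. It was low in WT too (-1.91 ± 0.74), while KO lay between Cyto and Nuc with a wide spread (1.24 ± 1.28). Zfp518b, a zinc finger gene, was at -1.87, -2.33 and -3.29 in Cyto and 3.04, 3.53, 2.51 and 2.47 in Nuc, and it was listed at the lowest value in all 4 KO libraries. In 1 mM glucose 5 of the 7 genes low in Cyto were expressed there: the Cyto mean was 3.85 for Abi3bp, 2.30 for Prlr, 2.21 for Atp8a1, 1.96 for Cnrip1 and 1.93 for Gm6565. For Slc16a7 it was 0.42 and for Zfp518b -2.89.

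The labelled cell type was checked against markers. Of 12 fibroblast markers 11 were measured, with Col1a1 (13.28 ± 0.14 in Cyto, 13.82 ± 0.08 in Nuc), Col3a1 (10.74 ± 0.02 and 11.71 ± 0.08) and Vim (12.19 ± 0.05 and 11.82 ± 0.19) among the highest levels. Of 7 epithelial markers 0 were listed. Of the other lists the table held 2 of 6 endothelial, 3 of 7 blood, 1 of 6 skeletal muscle, 3 of 10 neural, 4 of 6 adipocyte and 2 of 8 cartilage and bone markers. Of the blood markers Lyz2, a lysozyme of macrophages, was higher in Nuc (1.48 ± 0.15), while Cd68 (-0.61 ± 0.28) and Csf1r, the macrophage growth factor receptor (-0.32 ± 0.66), were not called and had lower Nuc means. Of the adipocyte markers Fabp4 (1.36 ± 0.21) and Lpl (0.93 ± 0.06), used in lipid handling, and the factor Pparg (0.53 ± 0.13) were higher, Pparg on chromosome 6 not with chromosome medians removed (0.08 ± 0.13), and the factor Cebpa was lower (-3.21 ± 0.65). Sox9 of the cartilage list was higher (0.74 ± 0.07). Of the neural markers Tubb3 was higher, and Map2 was not called (0.54 ± 0.22) but was called higher with chromosome medians removed (0.67 ± 0.21). In that setting all 3 measured neural markers were called higher. No endothelial or skeletal muscle marker was called.

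The same 2 lines were also compared in 1 mM glucose, with 4 libraries each from batch 1. No library is shared with the comparison in 10 mM, but the cell lines are, and medium and batch cannot be told apart. There 4939 of 12053 genes were called, 41% in all, 20.4% higher and 20.5% lower in Nuc. Of the 3845 genes called in 10 mM and listed in both tables, 2091 were called in the same direction in 1 mM glucose (54.4% of these, and 42.8% of the genes called in 1 mM) and 233 in the opposite one. Among the 671 of them with at least 2-fold differences in 10 mM, 416 were called in the same direction and 41 in the opposite one. The difference between media was called for 2261 of 11931 shared genes (19%), as a larger value in 1 mM for 9.47% of them and a smaller one for 9.48%.

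Several groups kept their direction. Sterol synthesis had 12 of 21 genes lower and 2 higher in 1 mM glucose, collagens 18 of 20 higher and 1 lower, the NF-kappaB pathway 7 of 12 lower and 0 higher, and G2 and mitosis 20 of 20 higher. Ankrd1 (-5.50 ± 0.28), Ptgs2 (-2.39 ± 0.25), Fmod (3.35 ± 0.11), Svep1 (2.27 ± 0.18), Nsg1 (-3.07 ± 0.19) and Insig1 (-1.66 ± 0.08) were called in the same direction there. Others did not. Of 22 glycolysis genes 6 were higher and 5 lower in 1 mM, and the difference between media was called for 13, among them Eno1 (-0.66 ± 0.08 in 10 mM, -0.02 ± 0.08 in 1 mM) and Pfkp (0.17 ± 0.10 in 1 mM). YAP and TEAD targets had 5 higher and 3 lower. Replication licensing turned to 5 of 15 higher and 2 lower, and nucleotide and DNA synthesis to 7 of 14 higher and 2 lower. Of 16 antioxidant and iron genes 2 were higher and 12 lower in 1 mM, of 17 interferon response genes 2 and 10, and of 12 antigen processing genes 2 and 4. The difference between media was called for 6 licensing, 6 nucleotide synthesis, 8 antioxidant and iron, 8 interferon response and 6 antigen processing genes. Of 13 mitochondrially encoded genes 13 were higher in 1 mM, against 0 higher and 2 lower in 10 mM. Fasn was 0.21 ± 0.09 in 1 mM, a difference between media of 0.77 ± 0.12. Called in opposite directions were Serpinb9b (-1.74 ± 0.12 in 10 mM and 1.66 ± 0.22 in 1 mM), Hmox1 (1.03 ± 0.09 and -1.69 ± 0.10), Lama4, a laminin chain (1.08 ± 0.09 and -1.65 ± 0.08), Ltbp2 (1.73 ± 0.23 and -1.02 ± 0.13), Fabp4 (1.36 ± 0.21 and -1.21 ± 0.15) and Grem1 (-1.08 ± 0.06 and 0.83 ± 0.08). The difference between media was called for each of them, as for all 233 genes called in opposite directions. That call therefore adds no separate support.

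**Figure D5:**
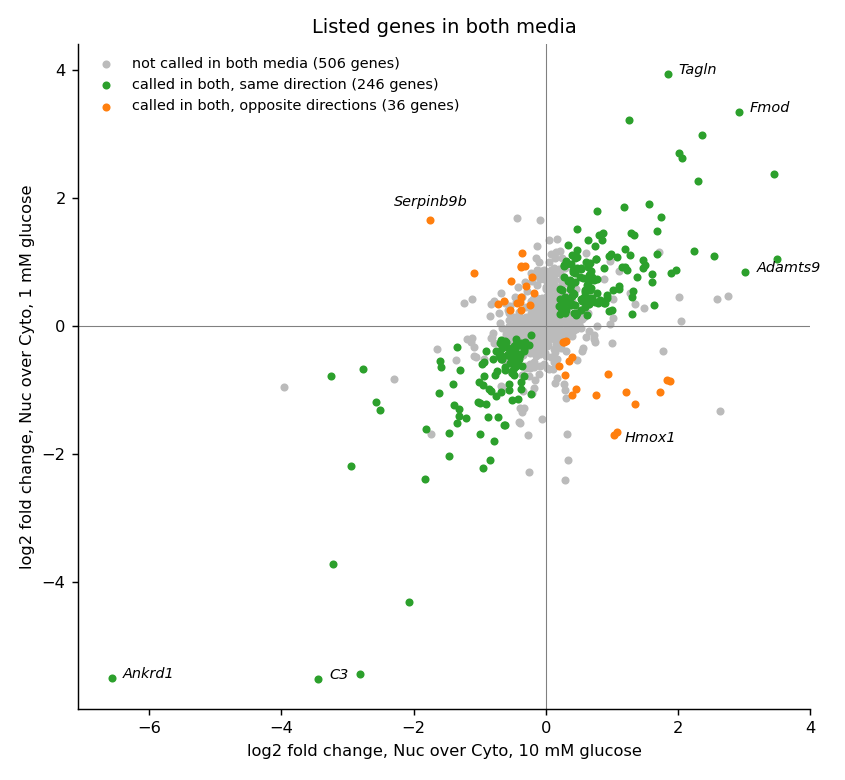
Log2 fold change of Nuc over Cyto in 10 mM glucose (x axis) and in 1 mM glucose (y axis) for listed genes measured in both tables (points), with genes called in both media in the same direction, in opposite directions, or not in both marked by colour. Ankrd1 is at the lower left, Fmod is at the upper right, and Serpinb9b and Hmox1 are in opposite quadrants.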

How the data were processed

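RNA was sequenced from 32 samples, of which this comparison uses 7 (Cyto 3, Nuc 4), with WT and KO in the same fit. The values are log2 CPM (scaled counts) as deposited by the authors, separately for each medium, with 1 lowest value shared by all libraries of a table (-3.29 in 10 mM glucose). Per the submitters' processing notes, kallisto, edgeR and limma were used with GRCm39, while versions, filters and the scaling between libraries are not given in the sources used here. Because kallisto estimates need not be whole reads, the reads were not recovered from the values, the depth of each library is unknown, and no depth-based interval is given. The 1 entry with no symbol in each table was left out, and 0 other columns of per-sample values were unused.

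From these values limma 3.58.1 (R 4.3.3, intensity trend in the prior variance) fitted the means of 4 groups over the 15 libraries in 10 mM glucose, and p-values were adjusted by the Benjamini-Hochberg method over 12791 genes. The 1 mM table (16 libraries, 12053 genes) was fitted alone in the same way, and a fit of all 31 libraries over 11931 shared genes tested the difference between media. Each table was normalized separately. The mitochondrially encoded share was compared with an exact permutation test over libraries. Chromosomes were matched by symbol or synonym for 96.59% of genes. When the fit was tested on simulated data with 200 changed genes of 12791, it recovered 40.3%, 79.1% and 95.5% of changes of 0.5, 1 and 2 on the log2 scale in 10 mM glucose. With 3963 genes called in the real comparison, these rates need not hold there.

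Genes named are Acly, the 10 highest and 10 lowest log2 fold changes among called genes of at least median level with groups that do not overlap, and members of gene lists written from textbook knowledge. The genes near silent in Nuc or in Cyto were chosen after their values were seen. The comparison and the lists were chosen with earlier results of these data known. A few members of the lists are counted but not reported here by name, in the text or in the plots. Alternatives were no trend, equal medians, quantile normalization, an offset of 1 on the linear scale, a minimum mean level, array weights, the replicate number as a block, the 2 groups alone, the libraries numbered 4 left out, and each library left out. In 1 mM glucose the libraries numbered 4 were not left out together. For the difference between media only no trend, equal medians, quantile normalization and the block were run. Removal of chromosome medians was added after the data were seen.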

Additional observations from a re-analysis of the deposited data

Results flagged for a closer look

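Among 234 named genes, 21 had 1 Nuc library far from the other 3, with a gap to the nearest library, as a share of the whole range, above the critical value of Dixon's test for 4 samples. Chance gives this in about 1 of 20 groups of 4, and here 18 of the 21 concerned Nuc library 4, the library that the second principal component set apart. Library 4 was the lowest for Svep1 (6.24, with the others at 6.88), Adamts9 (6.32), Ccnd2 (10.12), Col6a3 (10.54), Itga1 (5.15), Vcl (7.90), Dusp1 (3.12), Srebf2 (8.33) and Scap (6.08). It was the highest for Tpi1 (9.34, with the others at 8.97 to 8.99), Aldoa (9.05), Pcna (7.36), Plin2 (7.29), Id2 (5.42), Kat2a (6.28) and Rrm2 (7.24). The matrix and adhesion genes Svep1, Adamts9, Col6a3 and Itga1 were higher in Nuc than in Cyto in library 4 as well, by less than in the other 3.

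Cldn34c1 and Rin3 were above the lowest value of the table in Nuc library 4 alone, at -1.58 and -0.93, and Cebpa in Nuc library 3 alone (-1.80). Library 1 was the lowest for the complement protease gene C1ra (7.46) and library 2 for the isomerase gene Idi1 (6.92).

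The Nuc to Cyto difference differed between media for 10 of the genes set side by side, by the test of the difference itself. Over all 11931 shared genes it was called for 19%. The count of 10 is not a rate, because the genes were picked by their values. Serpinb9b, Grem1, Ltbp2, Lama4, Hmox1 and Fabp4 were set side by side as called in opposite directions. For all 233 such genes the difference was called. Subtracting the log2 fold change in 10 mM from the one in 1 mM glucose gave 3.40 for Serpinb9b, 1.91 for Grem1, 1.01 for Pfkp, 0.77 for Fasn, 0.64 for Eno1 and 0.43 for Fmod. It gave -2.75 for Ltbp2, -2.73 for Lama4, -2.72 for Hmox1 and -2.57 for Fabp4. Medium and batch cannot be told apart in these values.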

How the results depend on the processing

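The count of called genes in 10 mM glucose stayed within 1.5 times of 3963 under all settings run, from 3080 with chromosome medians removed to 5055 with array weights, and from 3163 to 4108 when 1 library was left out. In 1 mM glucose the count was 4939 and ranged from 4186 to 6539. For the difference between media it was 2261 and ranged from 2178 to 2341 over fewer settings. That fit was not repeated with a library left out or with chromosome medians removed. The mitochondrially encoded share differed by 0.0894 percentage points (Nuc minus Cyto), by -0.0746 without Cyto library 1, and by -0.0746 to 0.255 over all libraries left out. Among named genes called at the outset, the direction turned with chromosome medians removed for Ebp (0.087), Hoxa7 (-0.177), Hoxa9 (-0.075), Hoxa10 (-0.084), Hoxa11 (-0.153), Tpi1 (-0.107) and Lpcat3 (-0.001), all on chromosome 6 or X, and none of these was then called by limma. Among named genes not called, it turned for Gapdh (-0.37), which was then called lower, and for Mvd (-0.22), Ggps1 (0.06), Lss, Kat2b and Srebf1, which were not. Of 207 named genes called, 177 kept their call and direction in all settings, and 14 others lost the call in that setting. Calls also ended for Dhcr7 and Hoxa11 without the trend, Col1a1 and Myh9 after quantile normalization, Acat2, Dhcr7, Ebp, Kat2a and Nfkbib with Cyto and Nuc alone, and Dhcr7, Hdac6, Hoxa9, Hoxa11 and Serpina3i without the libraries numbered 4.

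Whether the replicate numbers pair the samples is not settled by the values, and the main fit did not pair them. The deviations of same-numbered Cyto and Nuc libraries correlated weakly, at 0.047, 0.034 and 0.104. Those of differently numbered libraries correlated at -0.116 to 0.068. With the replicate number as a block 4373 genes were called in 10 mM glucose, 4761 in 1 mM glucose and 2341 for the difference between media. Cyto libraries 2 and 4 correlated best with the Nuc library of their own number, while Cyto library 1 did so with Nuc library 2 (0.068).

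Depth is unknown, so differences among genes near the lowest value of the table are the least precise. Data were simulated with these spreads and 200 changed genes of 12791. Changes of 0.5 on the log2 scale were then recovered in 40.3% of cases in 10 mM glucose. Far more genes, 3963, were called in the real comparison. The adjusted p depends on how many genes change, so this rate need not hold there. A gene that was not called is not shown to be equal in both lines.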
